A study of Rattus norvegicus with 8 samples.

Results

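Ligand-gated ion channels for GABA, glycine, glutamate, acetylcholine and serotonin were examined in cultured sensory neurons. The set was taken as every rat gene whose symbol starts with Gabra, Gabrb, Gabrg, Gria, Grin1, Grin2, Grin3, Grik, Chrna, Chrnb, Glra, Glrb or Htr3. That gave 48 genes in the RefSeq gene table. All 48 had a probe on the array, and 36 had a probe bright enough to be tested, of 12148 genes tested and 15154 genes with a probe. The rule used gene names and signal above background, not fold changes, though a gene detected in only 1 group could enter through that group.

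The cells were dissociated cultures of dorsal root ganglia, which house the cell bodies of sensory neurons, from Wistar rats 0 to 5 days old, with cells of males and females pooled. After 2 to 3 days in serum-free medium with 5-fluoro-2′-deoxyuridine and uridine, a pair of agents used against dividing cells, cultures were kept for 5 days with a human protein at 100 ng/ml in 1 of 3 forms. These forms were the single mutant P61S (3 arrays), the double mutant P61S/R100E (3 arrays) and the wild type (2 arrays), and untreated cultures were not analysed here. Each array measured RNA of a whole culture, neurons and other cells together, so fewer cells of a type and less RNA per cell cannot be told apart. The labels do not say whether replicates were separate cultures or animals, so p-values measure only the spread between these samples, which may be technical.

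Ligand-gated receptors are rings of subunits around a channel that opens when the transmitter binds. GABA-A, glycine, nicotinic and serotonin 3 receptors are pentamers of related subunits, while AMPA, NMDA and kainate receptors are tetramers of glutamate receptor subunits. Which subunits a neuron makes sets which receptor it can assemble, and in primary sensory neurons GABA-A, kainate, nicotinic and serotonin 3 receptors act along the axon and at central and peripheral endings.

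Values are log2 signals relative to each array's own 75th percentile, and a difference of 1 is a 2-fold difference. Probes differ in brightness, so levels are compared only within a probe. The arrays had 75th percentile signals of 3267 to 5269, with 78.7% to 88.8% of spots well above background and 0 saturated. Their number limits the precision. All 8 lay on 1 slide, where the last column held only the wild-type arrays, so column and protein cannot be told apart there. Wild type replicate 2 stood apart from the rest. It was the highest of the 8 arrays for 13 of the 36 receptor genes and for 33.3% of all tested genes, whereas wild type replicate 1 was the highest for 0 and 4.6%.

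Neuronal identity of the cultures was checked on 13 of 15 pan-neuronal markers that had a probe, Pou4f1 and Rbfox3 having none. All 13 were well above background on all 8 arrays, and their summed signal, in units of the array's 75th percentile, was 190 to 220 with P61S, 205 to 221 with P61S/R100E and 200 to 226 with wild type. Other cells were present, since all 8 Schwann cell markers and all 7 fibroblast markers were also above background on every array. Schwann cell markers summed to 83.2 to 89.8, 86.7 to 98.1 and 87.8 to 89.6 in the same order of groups. The fibroblast markers summed to 145 to 160 with P61S, 153 to 185 with P61S/R100E and 160 to 161 with wild type. The median difference of the 13 pan-neuronal markers between P61S/R100E and P61S was -0.00013. Among them 1 had an unadjusted p under 0.05, beside 4.68% of all genes. Tubb3, neuronal beta-tubulin, was 0.35 higher with P61S/R100E than with P61S (limma SE 0.0757, unadjusted p = 0.00265, adjusted p = 0.654). The part of these cell types in the receptor values was not tested.

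Of the 36 receptor genes, 31 were well above background on all 8 arrays. Chrnb3, Gabra3, Glrb, Gria1 and Grik3 were above it on both wild-type arrays but on 1 or 2 arrays of each other group, and passed only through the wild type, so their differences from it give no support. The other 12 genes were well above background on 0 to 2 arrays and were not tested. Among them were the GABA-A subunits Gabra4, Gabra6 and Gabrg3, the glycine receptor subunits Glra3 and Glra4, the NMDA subunit Grin2b, the nicotinic subunits Chrna2, Chrna4, Chrna9 and Chrna10, and the serotonin 3 subunit Htr3b. The tested genes comprised 8 of 12 GABA-A, 3 of 5 glycine, 4 of 4 AMPA, 6 of 7 NMDA, 5 of 5 kainate, 9 of 13 nicotinic and 1 of 2 serotonin 3 receptor genes.

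The study compared the 3 forms of the protein to ask how the added R100E change alters expression. No receptor gene passed after adjustment over all probes. In limma's test there were 0 of 36 receptor genes past an adjusted p of 0.05 in each of the 3 comparisons, against 0% of the 23585 probes tested in each. The smallest adjusted p of a receptor gene was 0.474, for Grik1 between P61S/R100E and P61S. At an unadjusted p under 0.05, limma gave 6 of 36 receptor genes (16.7%) between P61S/R100E and P61S, where 4.68% of all genes passed. It also gave 6 (16.7%) between P61S/R100E and wild type, against 5.19% of all genes, and 2 (5.56%) between P61S and wild type, against 1.72%. Among the 31 receptor genes well above background on all arrays the counts were 6, 5 and 1, against 4.73%, 4.99% and 1.46% of 11447 such genes. The P61S/R100E arrays enter both of the first 2 comparisons, so those counts share samples.

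These counts depend on the arrays, and the share of all genes at that unadjusted p was not taken in the fits that follow. Without P61S replicate 1 the 6 genes between P61S/R100E and P61S became 3. Without wild type replicate 2 the counts were 6, 4 and 2 in the same order of comparisons. Without wild type replicate 1, which leaves the array that stood apart as the lone wild type, limma called 4 receptor genes between P61S/R100E and wild type (among them Chrna6, Chrnb3 and Glra1) and 1 between P61S and wild type (Chrnb3, tested only through the wild type) at an adjusted p under 0.05. In that fit 1244 and 250 of the 23585 probes were called, and the unadjusted counts were 11 and 9 receptor genes. The lone array is assumed there to vary as the other groups do.

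The groups did not overlap for 9 of 36 receptor genes (25%) between P61S/R100E and P61S, and for 15.7% of all genes. Between P61S/R100E and wild type they were separate for 10 (27.8%) and 16.2%, and between P61S and wild type for 5 (13.9%) and 17.7%. The counts of 10 and 5 include Chrnb3, which passed only through the wild type and gives them no support. The median difference of the 36 genes was -0.06, -0.16 and -0.04 in these comparisons, beside -0.01, -0.03 and -0.02 over all genes. The medians against wild type include Chrnb3, Gabra3, Glrb, Gria1 and Grik3, which passed only through the wild type. That filter favours a lower value in the other groups, and medians without these genes were not taken. Receptor genes also had larger errors, with a median SE of 0.165 between P61S/R100E and P61S, beside 0.122 over all tested genes.

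**Figure D1:**
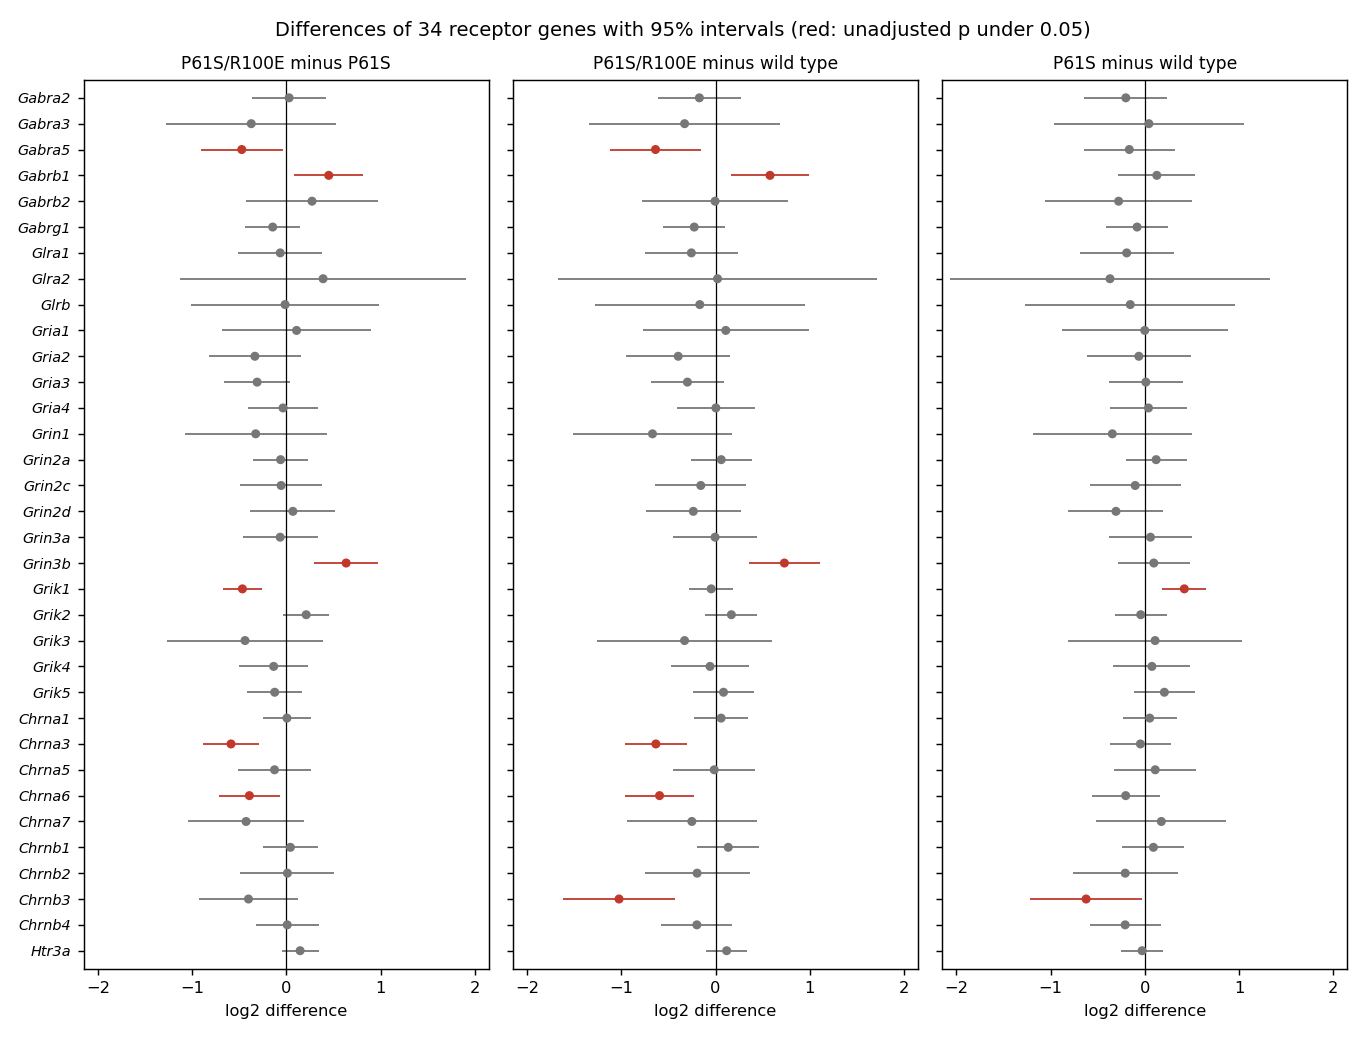
Log2 differences (x axis) of 34 of the tested receptor genes (y axis) in 3 comparisons, as points with 95% intervals from limma, coloured red where the unadjusted p was under 0.05. Red points number 6, 6 and 2 from left to right, and Glra2 has the widest intervals.

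GABA-A receptors, chloride channels usually built from alpha, beta and gamma subunits, had 2 genes with an unadjusted p under 0.05 in both comparisons of P61S/R100E, and these lay in opposite directions. Gabrb1, the beta1 subunit, stood at -4.13, -3.85 and -3.95 with P61S, at -3.81, -3.26 and -3.51 with P61S/R100E and at -4.03 and -4.17 with wild type. All 3 P61S/R100E arrays were above the other 5, with a gap of 0.04 to the nearest P61S array. The difference was 0.45 (SE 0.154, limma unadjusted p = 0.0227) from P61S, a 1.37-fold difference, and 0.58 (SE 0.172, unadjusted p = 0.0124) from wild type. Without wild type replicate 2 the latter was 0.51 (unadjusted p = 0.0674).

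Gabra5, the alpha5 subunit of receptors that often lie outside synapses, stood at -6.63, -6.42 and -6.87 with P61S, at -7.02, -6.85 and -7.46 with P61S/R100E and at -6.46 and -6.49 with wild type. The P61S/R100E arrays were below both wild-type arrays and overlapped the P61S arrays. Differences were -0.47 (SE 0.182, limma unadjusted p = 0.0362) from P61S and -0.64 (SE 0.204, unadjusted p = 0.017) from wild type. Normexp background correction with quantile normalization brought them to -0.10 and -0.19, and quantile normalization by itself to -0.35 and -0.50. Without P61S/R100E replicate 3 the difference from P61S was -0.30.

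The other 6 GABA-A genes did not pass even without adjustment. Gabra2, Gabrg1 and Gabra4 lie in the same gene cluster as Gabrb1. In that cluster Gabra2 differed by 0.03 and Gabrg1 by -0.14 between P61S/R100E and P61S, Gabra4 was not tested, and Gabrb1 differed by 0.45. Gabra3 (-0.37) and Gabrb2 (0.27) differed between P61S/R100E and P61S by less than their SE (0.381 and 0.294).

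Promoter sequences are shown for the 4 genes with an unadjusted p under 0.05 that had an entry in the RefSeq promoter table, as the 250 bases before the start, 5′ to 3′ in the direction of the gene. Capitals mark a GC box (GGGCGG on either strand, the letters read by Sp1 family factors) or the palindromic core of the NRF1 motif (CGCATGCG). These motifs were chosen after the sequences had been seen. The pair of GABA-A genes with opposite differences comes first, Gabrb1 at chr14:36902894-36903143 and Gabra5 at chr1:117516607-117516856, both on the minus strand of GRCr8.
Gabrb1: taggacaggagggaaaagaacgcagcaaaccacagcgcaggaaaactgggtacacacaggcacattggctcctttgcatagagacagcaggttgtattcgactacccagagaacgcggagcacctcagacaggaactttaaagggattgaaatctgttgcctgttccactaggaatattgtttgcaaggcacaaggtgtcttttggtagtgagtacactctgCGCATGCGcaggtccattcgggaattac
Gabra5: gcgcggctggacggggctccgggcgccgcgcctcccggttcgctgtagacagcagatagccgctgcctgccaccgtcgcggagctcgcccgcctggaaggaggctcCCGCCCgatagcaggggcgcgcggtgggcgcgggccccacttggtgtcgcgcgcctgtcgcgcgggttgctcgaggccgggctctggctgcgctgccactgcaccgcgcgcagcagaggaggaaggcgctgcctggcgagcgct
Next come Chrna3 at chr8:64311252-64311501 and Grik1 at chr11:41056504-41056753, also on the minus strand, the genes with the smallest p of their families.
Chrna3: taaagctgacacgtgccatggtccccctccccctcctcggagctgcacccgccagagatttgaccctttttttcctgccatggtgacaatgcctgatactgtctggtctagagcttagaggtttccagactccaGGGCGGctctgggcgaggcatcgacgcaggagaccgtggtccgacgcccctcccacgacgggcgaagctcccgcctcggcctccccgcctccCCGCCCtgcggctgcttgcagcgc
Grik1: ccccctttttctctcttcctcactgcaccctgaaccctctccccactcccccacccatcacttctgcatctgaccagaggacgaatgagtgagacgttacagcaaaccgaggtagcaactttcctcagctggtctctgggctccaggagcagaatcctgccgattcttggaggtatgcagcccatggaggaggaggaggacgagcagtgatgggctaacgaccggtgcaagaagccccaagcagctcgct
Chrna3 held 2 GC boxes, Gabra5 held 1 and Gabrb1 held the NRF1 core, while Grik1 held neither. Over the 33 receptor genes with an entry, 16 (48.5%) held a GC box, beside 30.5% of all 33469 promoters of the same length, and 2 (Gabrb1 and Gabrb2, 6.06%) held the NRF1 core, beside 1.47%. TATAAA on either strand was found in 3 (Chrnb1, Gabra3 and Glra2), beside 12.9% of promoters, and the palindrome TGACGTCA, the cyclic AMP response element, in 0 beside 1.59%. A match is a run of letters and was not tested as a binding site.

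Glycine receptors, chloride channels built from alpha and beta subunits, had no gene with an unadjusted p under 0.05. Glra1, the alpha1 subunit and the glycine receptor gene with the smallest p, stood at -4.54, -4.48 and -4.51 with P61S, at -4.61, -4.67 and -4.45 with P61S/R100E and at -4.70 and -3.94 with wild type. Wild type replicate 2 alone was high, and the groups overlapped. The difference between P61S/R100E and wild type was -0.26 (95% interval -0.75 to 0.24, limma unadjusted p = 0.261). Glrb, the beta subunit that anchors the receptor to gephyrin, differed by -0.01 from P61S with an interval of -1.01 to 0.99.

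Glra2, the alpha2 subunit of immature receptors, varied more between arrays of 1 group than between groups. Its probe read 1.2, 2.32 and 1.31 with P61S, 0.73, 2.02 and 3.23 with P61S/R100E and 1.57 and 2.38 with wild type. The range of 2.5 over 8 arrays was larger than that of 97.3% of tested probes, whose median range was 0.55. P61S/R100E replicates 1 and 3 were the lowest and the highest of all. The difference between P61S/R100E and P61S was 0.39 with a 95% interval of -1.12 to 1.90. Over the 8 arrays, 9 of the 23584 other tested probes had a correlation above 0.99 with it. Of these, 5 had no gene name and the others were probes for Ptprn2, Extl3, Cym and Rassf2, while the second probe of Ptprn2 had a correlation of 0.148. The correlations rest on 8 arrays and shared scaling and are a description.

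**Figure D2:**
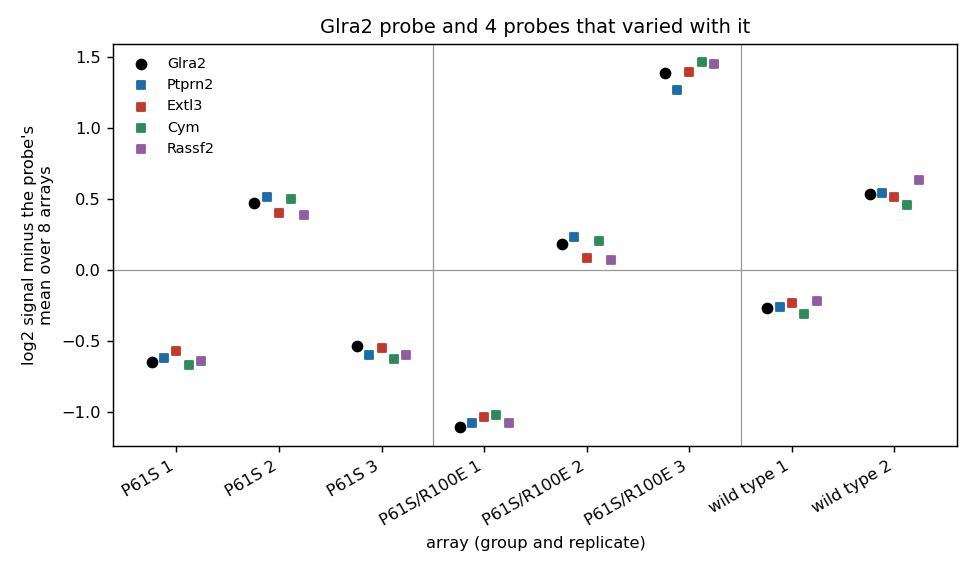
Log2 signal of the Glra2 probe (circles) and of the Ptprn2, Extl3, Cym and Rassf2 probes most like it (squares), each minus its own mean over 8 arrays (y axis), by array (x axis). All 5 probes are highest on P61S/R100E replicate 3 and lowest on P61S/R100E replicate 1.

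AMPA receptors, the fast glutamate receptors, had 0 of 4 genes with an unadjusted p under 0.05 on the brightest probes. Gria3, subunit GluA3, had the smallest p. Its values were -0.98, -1.10 and -1.07 with P61S, -1.70, -1.21 and -1.18 with P61S/R100E and -1.05 and -1.08 with wild type. The P61S/R100E arrays were below the other 5, replicate 1 by far the most. The difference was -0.31 from P61S (SE 0.147, limma unadjusted p = 0.0737) and -0.30 from wild type (unadjusted p = 0.113), and a second Gria3 probe gave -0.37 and -0.30. Gria2, the subunit that keeps the channel nearly closed to calcium, differed by -0.33 and -0.40, with P61S/R100E replicate 2 at -4.48, above the P61S arrays, and replicates 1 and 3 at -5.27 and -5.16. Gria1 differed by 0.11 and 0.11.

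The probes of Gria4 disagreed. The brighter one gave 0.04 between P61S and wild type, and the other gave 0.64 (limma SE 0.233, unadjusted p = 0.0289). Their values had a correlation of -0.119 over the 8 arrays.

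NMDA receptors contain Grin1 with Grin2 or Grin3 subunits, and those with Grin1 and Grin2 need glycine or D-serine as well as glutamate. Grin3b, one of the glycine-binding Grin3 subunits, stood at -6.07, -5.89 and -6.23 with P61S, at -5.62, -5.36 and -5.30 with P61S/R100E and at -6.32 and -6.00 with wild type. All 3 P61S/R100E arrays were above the other 5, by at least 0.27. Differences were 0.63 (SE 0.143, limma unadjusted p = 0.00314, adjusted p = 0.654) from P61S and 0.73 (SE 0.16, unadjusted p = 0.00269, adjusted p = 0.713) from wild type, 1.55-fold and 1.66-fold. With the deposited values they were 0.75 (SE 0.365, limma unadjusted p = 0.0787) and 1.16 (SE 0.408, unadjusted p = 0.0242). With normexp background correction and quantile normalization they were 0.41 and 0.50.

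Its relative Grin3a differed by -0.07 and -0.01, with intervals of -0.46 to 0.33 and -0.45 to 0.44. Grin1, the subunit every NMDA receptor needs, differed by -0.33 from P61S and by -0.67 from wild type (limma unadjusted p = 0.102), where wild type replicate 2 read -5.35 and replicate 1 read -6.30. The Grin2 subunits bind glutamate. Grin2a differed by -0.06 and 0.06, Grin2c by -0.06 and -0.16 and Grin2d by 0.07 and -0.24 from P61S and wild type.

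Kainate receptors, the third class of glutamate channel and long known in sensory neurons of the ganglion, had 1 such gene. Grik1, subunit GluK1, stood at -0.10, -0.07 and -0.05 with P61S, at -0.61, -0.47 and -0.54 with P61S/R100E and at -0.38 and -0.60 with wild type. The 3 P61S arrays were above the other 5, and the wild-type and P61S/R100E arrays overlapped. P61S/R100E was 0.47 lower than P61S (SE 0.0885, limma unadjusted p = 0.00121, adjusted p = 0.474), a 1.38-fold difference, and P61S was 0.42 higher than wild type (SE 0.099, unadjusted p = 0.00393). Between P61S/R100E and wild type the difference was -0.05 (95% interval -0.28 to 0.19), and within the 2 slide rows it was -0.23 and 0.10. So on this probe, which had 1 spot per array, Grik1 had P61S as the group that lay apart. In this it was unlike the other genes named with each array's value, and it was not tested as a contrast of its own. A second Grik1 probe gave -0.35 (unadjusted p = 0.0921) and 0.18 (unadjusted p = 0.391) for the same pair of comparisons. There P61S did not lie apart, since wild type replicate 1 read -0.19, above all 3 P61S arrays, and replicate 2 read -0.91. With both probes averaged, P61S/R100E differed from P61S by -0.41 (limma unadjusted p = 0.0155) and P61S from wild type by 0.30 (unadjusted p = 0.0732).

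Grik2, subunit GluK2, was almost alike on the P61S arrays (-2.14, -2.14 and -2.13) and read -2.0, -2.01 and -1.76 with P61S/R100E. Its difference of 0.21 (limma unadjusted p = 0.082) had the sign opposite to that of Grik1. Wild type read -1.98 and -2.21, spanning both. Grik5, a high-affinity subunit that needs a partner such as GluK1 or GluK2, differed by -0.12 from P61S, the related Grik4 by -0.13 and the dim Grik3 by -0.44 with an interval of -1.27 to 0.39.

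Nicotinic receptors, the cation channels for acetylcholine, had 2 genes with an unadjusted p under 0.05 in both comparisons of P61S/R100E, Chrna3 and Chrna6, both lower with P61S/R100E. Another, Chrnb3, entered the test only through the wild type. Chrna3, the alpha3 subunit of ganglionic receptors, stood at -3.60, -3.57 and -3.72 with P61S, at -4.38, -4.02 and -4.25 with P61S/R100E and at -3.71 and -3.46 with wild type. Every P61S/R100E array was below every other array, by at least 0.30. Differences were -0.59 (SE 0.123, limma unadjusted p = 0.00211, adjusted p = 0.596) from P61S and -0.63 (SE 0.138, unadjusted p = 0.00256, adjusted p = 0.695) from wild type, 1.5-fold and 1.55-fold. Normexp background correction with quantile normalization brought them to -0.46 and -0.33, and quantile normalization by itself to -0.55 and -0.49. P61S and wild type differed by -0.05.

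Chrna6, the alpha6 subunit, read -6.10, -6.11 and -6.07 with P61S, -6.54, -6.38 and -6.53 with P61S/R100E and -6.15 and -5.63 with wild type. The P61S/R100E arrays were again the lowest 3 of the 8. Differences were -0.39 (SE 0.137, limma unadjusted p = 0.0243) from P61S and -0.59 (SE 0.153, unadjusted p = 0.00609) from wild type, and without wild type replicate 2 the latter was -0.34. With normexp background correction and quantile normalization the 2 differences were -0.12 and -0.25, and with quantile normalization by itself -0.27 and -0.44.

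Chrnb3, a beta3 subunit that joins alpha6 receptors and lies beside Chrna6 in the genome, read -7.02, -6.85 and -7.13 with P61S, -7.52, -7.35 and -7.33 with P61S/R100E and -6.83 and -5.92 with wild type. The order of the groups was the same as for Chrna6, but 2 of 3 P61S arrays and 1 of 3 P61S/R100E arrays were well above background. It was tested because both wild-type arrays, where it was highest, were above background, so its p against wild type is not given. P61S/R100E differed from wild type by -1.02 (SE 0.249) and P61S by -0.62, and without wild type replicate 2 by -0.57 and -0.17. With normexp background correction and quantile normalization these differences were -0.32 and -0.22. The difference between P61S/R100E and P61S was -0.40 (limma unadjusted p = 0.115).

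Chrna3 lies between Chrna5 and Chrnb4 in the genome, and the products of these 3 genes assemble with each other in ganglionic receptors. Chrnb4 read -2.72, -2.71 and -2.70 with P61S and -2.75, -2.74 and -2.61 with P61S/R100E. It differed by 0.01 (95% interval -0.33 to 0.35) and Chrna5 by -0.13 (95% interval -0.51 to 0.26), beside the -0.59 of Chrna3.

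Chrna7, whose product can form a receptor by itself, differed by -0.43 (limma unadjusted p = 0.144), with P61S/R100E replicate 2 at -5.23 and the other 7 arrays between -4.67 and -4.12. Chrnb2, a partner of alpha subunits in neurons, differed by 0.01. Subunits best known from the muscle receptor differed little. Chrna1 differed by 0.01 (95% interval -0.25 to 0.26) and Chrnb1 by 0.04 (95% interval -0.25 to 0.34) between P61S/R100E and P61S. Of 11 skeletal muscle markers 10 had a probe and 9 were tested, Myod1 not being tested and Mylpf having no probe. They summed to 0.608 to 0.637 with P61S, 0.654 to 0.807 with P61S/R100E and 0.612 to 0.679 with wild type, in units of the 75th percentile signal. Their part in the nicotinic values was not tested.

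Serotonin 3 receptors were represented by Htr3a, the subunit that every such channel contains. It read -3.15, -3.16 and -3.29 with P61S, -3.09, -2.99 and -3.08 with P61S/R100E and -3.23 and -3.11 with wild type. The P61S/R100E arrays were the 3 highest, by a margin of 0.02. The difference was 0.15 from P61S (limma unadjusted p = 0.12) and 0.12 from wild type (unadjusted p = 0.243).

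**Figure D3:**
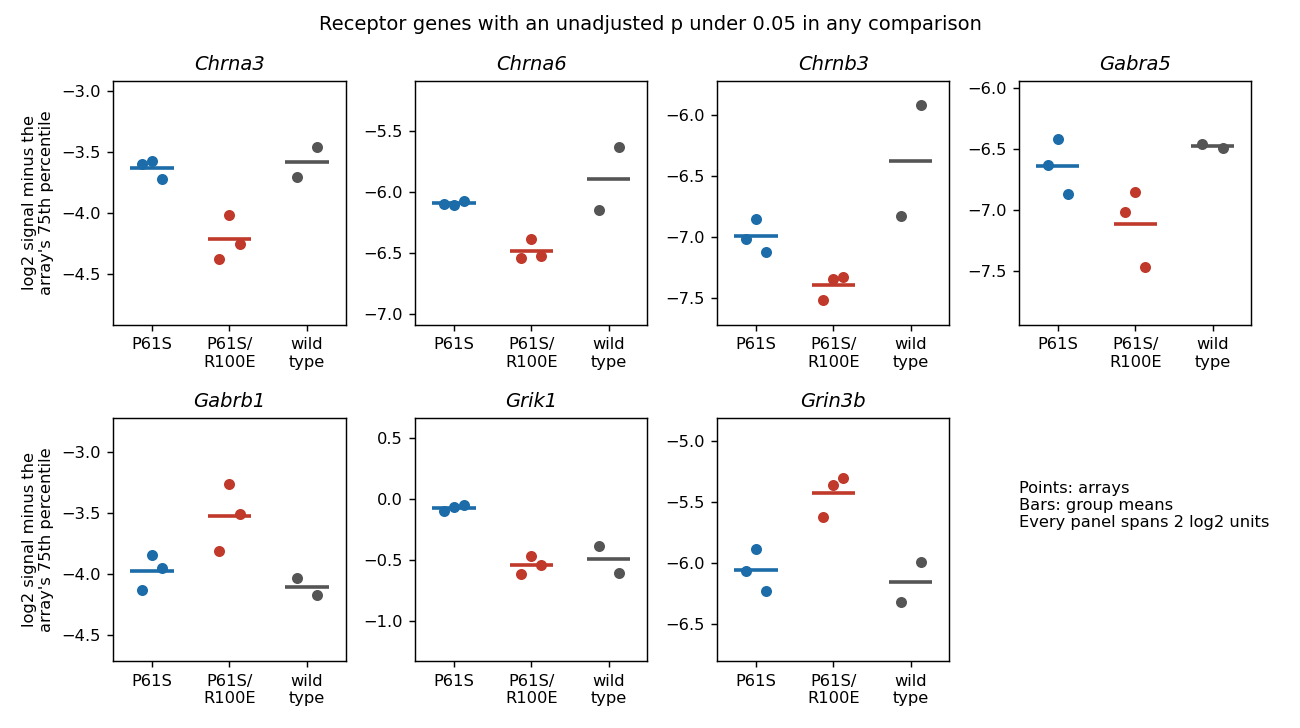
Log2 signal minus the array's 75th percentile (y axis) of the 7 receptor genes with an unadjusted p under 0.05 in any comparison, for each array (points) with group means (bars), by form of the protein (x axis). P61S/R100E is the lowest group for Chrna3, Chrna6, Chrnb3 and Gabra5 and the highest for Gabrb1 and Grin3b, while P61S lies apart for Grik1.

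Arrays of P61S/R100E lay mostly in other slide columns than the P61S arrays. The slide column was added as a covariate, as a number with a straight-line effect. With it, 11 of the 14 differences with an unadjusted p under 0.05 no longer had one. The 14 include those of Chrnb3 from wild type, a gene tested only through the wild type. Those that kept it were Chrna3 (-0.78), Chrna6 (-0.71) and Grin3b (0.84) between P61S/R100E and wild type. The last column held only the wild-type arrays, so this covariate cannot remove an effect of that column from comparisons with wild type. Between P61S/R100E and P61S, Chrna3 then differed by -0.44 (SE 0.22) and Grik1 by -0.40 (SE 0.163). The signs of all 14 stayed, and the errors grew, since columns and forms of the protein largely coincide. Within slide rows 1 and 2, Chrna3 differed from P61S by -0.80 and -0.42, Grik1 by -0.53 and -0.45 and Grin3b by 0.36 and 0.90.

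**Figure D4:**
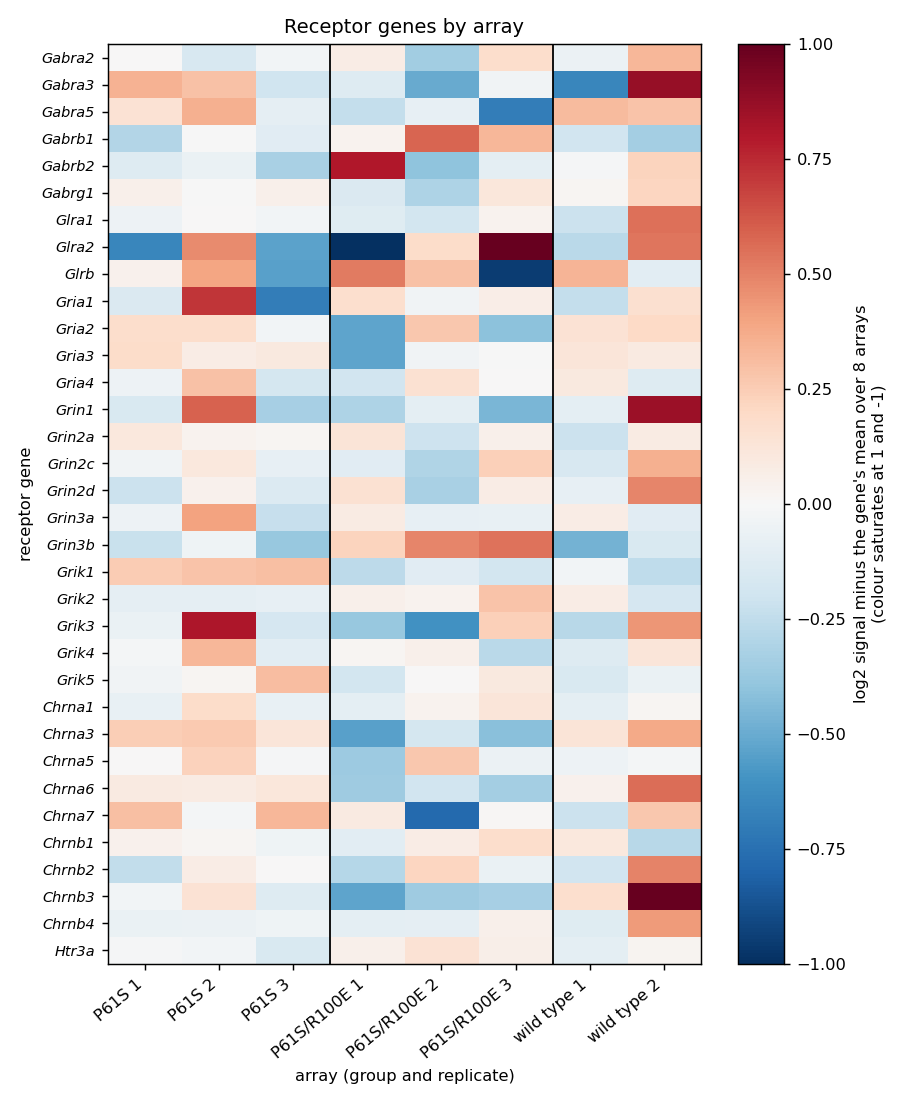
34 of the tested receptor genes (rows) on each array (columns), coloured by its log2 signal minus the gene's mean over the 8 arrays. Wild type replicate 2 is the highest array for 12 of the 34 genes. Chrna3, Chrna6 and Chrnb3 are blue on all 3 P61S/R100E arrays, as are genes of other families such as Gabra5, Grik1 and Grin1.

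Genes that make, move or anchor the same transmitters and receptors were taken from 5 lists of partners, and 0 of their tested genes passed limma's adjusted test in any comparison. Of 25 partners of GABA signalling 19 were tested. At an unadjusted p under 0.05 were 2 between P61S/R100E and P61S, 1 between P61S/R100E and wild type and 0 between P61S and wild type. Over all genes the shares at that p were 4.68%, 5.19% and 1.72% in the same order, which also stand beside the lists below. Gad1, which makes GABA, was 0.51 lower with P61S/R100E than with P61S (limma unadjusted p = 0.0248). The chloride transporters that set the direction of GABA currents, Slc12a2 and Slc12a5, differed from P61S by 0.04 and -0.10, and gephyrin (Gphn), the scaffold of GABA-A and glycine receptors, by -0.05. Both tested glycine transporters, Slc6a5 (0.22) and Slc6a9 (0.00), had an unadjusted p above 0.05.

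Among 46 glutamate receptor partners 36 were tested, and 1, 4 and 1 had an unadjusted p under 0.05. Dlg4, the scaffold PSD-95, was between -6.31 and -5.54 on the 6 mutant arrays and at -5.10 and -4.79 with wild type. It differed from wild type by -0.83 with P61S/R100E (limma SE 0.236, unadjusted p = 0.0098) and by -0.98 with P61S (unadjusted p = 0.00441). The transporter Slc1a1 differed from P61S by -0.22. Neto1, an auxiliary subunit of kainate receptors, differed from wild type by 0.65. The other 2 of the 4 genes, the vesicular transporter Slc17a8 (-0.79) and the metabotropic receptor Grm6 (-1.32), were well above background on 4 arrays each and entered only through the wild type, where their mean was highest, so they give no support to that count. Grm6 read -5.69 on wild type replicate 2 and -7.70 on replicate 1.

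For acetylcholine, 15 of 22 partners were tested, with 2, 1 and 0 at an unadjusted p under 0.05. Ache, the esterase that breaks acetylcholine down, read 1.33, 1.40 and 1.33 with P61S, 1.03, 1.25 and 1.04 with P61S/R100E and 1.27 and 1.5 with wild type. It was lowest with P61S/R100E, by -0.25 and -0.28 (limma unadjusted p = 0.0473 and 0.046). The muscarinic receptor Chrm2 was 0.58 higher with P61S/R100E than with P61S (limma unadjusted p = 0.0333). With wild type it read -5.88 and -5.13, the latter within the range of the P61S/R100E arrays. The chaperones of nicotinic receptors, Ric3 and Tmem35a, differed from P61S by -0.48 and 0.41, with intervals of -2.11 to 1.15 and -0.26 to 1.08. For serotonin 13 of 20 partners were tested, with 0, 1 and 1 at an unadjusted p under 0.05. The gene was Htr6, a metabotropic receptor, at -1.08 and -0.74 from wild type, where replicate 2 read -5.61 and replicate 1 read -6.69.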

How the data were processed

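RNA of 8 rat cultures was hybridised to 8 one-colour arrays. The scanner signal is a deposited intensity, background-subtracted and spatially detrended per the file headers by Feature Extraction 10.7.3.1, from RNA with an integrity number of at least 8 per the labels. The authors also deposited log2 values of 22018 probes. These had correlations of 0.999 or more with log2 scanner signals and column medians of 9.82 to 10.33, which leaves the arrays on their own scales, and were an alternative.

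Spots of a probe were averaged, log2 was taken and the array's log2 75th percentile subtracted. Of 30367 probes, 23585 were tested, those well above background on all arrays of any 1 group, and the brightest stood for a gene. Probes were named by RefSeq accession. The array design used build rn4 and the RefSeq tables GRCr8.

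Groups followed the sample titles. One limma fit (3.58.1, R 4.3.3) held 3 group means with 5 residual and 1.93 prior degrees of freedom, with Benjamini-Hochberg adjustment over all tested probes at 0.05. Simulated data held all 8 arrays in their 3 groups and 23585 probes, with changes placed in the P61S/R100E arrays. Between P61S/R100E and P61S, 5, 34, 46 and 49 of 50 probes changed 1.5, 2, 4 and 8-fold were recovered. All sizes were planted at once, with independent normal noise. That eases the adjusted threshold, so these counts can be too high for a lone change. In the same comparison 10 unchanged probes were called.

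Each array's value is given for genes at an unadjusted p under 0.05 in any comparison and for the gene of smallest p in a family without one. At most 6 partner genes a list are named at that p. Members and lists were chosen with earlier results of these data known. Further genes of a cluster, receptor or marker list were named after their values were seen.

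Alternatives in background and scaling were normexp (offset 50, on the median signal, since the mean signal was not used here) followed by quantile normalization, quantile normalization by itself, median centring over detected probes, and the deposited values. Filters were dropped or asked of all 8 arrays. The model took a block for the replicate number or for the slide row, or the slide column as a covariate, held only 2 groups, or used robust hyperparameters and a variance trend. All probes of a gene were averaged, and each array was left out in turn. Some items are not reported here. Tables came from pandas 2.3.3 and numpy 2.4.6 under Python 3.11.15, figures from matplotlib 3.10.9.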

Additional observations from a re-analysis of the deposited data

How the results depend on the processing

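The 14 single-gene differences with an unadjusted p under 0.05 were recomputed in 278 cases over 12 processing choices and 8 left-out arrays. They include the differences of Chrnb3 from wild type, which entered only through the wild type and give the tally no support. In 223 cases the sign and side of the threshold held, in 55 only the sign held and in 0 the sign turned. Many of these cases left the difference itself as it was and changed only its error, so its sign could not turn. The 14 were also picked by their p in these same data, so the tally does not test them. The number of genes at an unadjusted p under 0.05 between P61S/R100E and P61S, 6 as reported, was 3 with normexp and 1 (Grik3) with the slide column, and ran from 3 to 6 over left-out arrays. Between P61S/R100E and wild type it was 3 with the slide column and 4 to 11 over left-out arrays. Between P61S and wild type, 2 as reported, it was 1 with the deposited values, no filter, the filter on all arrays, the slide column, only the groups compared and the variance trend, and 1 to 9 over left-out arrays. Calls at an adjusted p under 0.05 ran from 0 to 0, 0 to 4 and 0 to 1 over left-out arrays, above 0 only without wild type replicate 1, and were 0 under the 12 processing choices. The share of all genes at an unadjusted p under 0.05 was not taken in these refits, and the cause was not tested. Deviations from the group means in arrays of the same replicate number had correlations of 0.0508, -0.021 and 0.0081 between P61S and P61S/R100E. With wild type they were 0.104 and 0.167 for P61S and -0.158 and -0.198 for P61S/R100E. Groups of 2 or 3 arrays are too small for these values to tell whether the numbers pair the samples. With the replicate block the unadjusted counts were 6, 8 and 2 and the adjusted counts 0, and Chrna3 differed by -0.59 from P61S.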
